A study of Mus musculus with 8 samples.

Results

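To ask how classic stress targets of the hypoxia-inducible factors (HIFs) and receptors of mitophagy respond to oxygen, 9 genes were followed by RNA-seq. The cells were mouse bone-derived mesenchymal stem cells (MSCs) kept at 2% or 21% oxygen. The genes were Bnip3, Bnip3l, Fundc1, Ndrg1, Ankrd37, Adm, Ddit4, Mxi1 and Bhlhe40, chosen by symbol for these roles, and they are 9 of the 53465 genes in the count table. MSCs are stromal cells of the bone and give rise to osteoblasts, adipocytes and chondrocytes. They came from bone fragments of male C57BL/6N mice aged 3 to 5 months, were first grown at 2% oxygen, were sorted by flow cytometry as CD45-/TER-119-/CD140a+/Sca-1+ cells, and were then divided between hypoxia (2% oxygen, 4 samples) and normoxia (21% oxygen, 4 samples). All cells were thus cultured and had been in hypoxia, and hypoxia is the reference condition. The samples within a group are described as biologically independent replicates. Log2 changes are given as normoxia minus hypoxia, so that a negative value is a lower level in normoxia.

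HIF1 and HIF2 are transcription factors whose alpha subunits are hydroxylated when oxygen is plentiful and are then bound by VHL and destroyed. At low oxygen they accumulate, pair with ARNT and bind a short DNA element, the hypoxia response element, near genes of glycolysis, angiogenesis, growth restraint and mitochondrial turnover. BNIP3, its homologue BNIP3L (also called NIX) and FUNDC1 sit in the outer mitochondrial membrane and bind LC3 and GABARAP proteins, so that the mitochondrion is enclosed in an autophagosome, a process called mitophagy.

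Levels are given as CPM, the counts per 1000000 counts of a library after scaling between samples by the TMM method. Total counts were 12898291 to 13433824 in 7 samples and 25132141 in hypoxia replicate 1. All 10 listed MSC markers were detected, with a summed level of 4018 to 4848 CPM in hypoxia and 4326 to 4688 CPM in normoxia. Of these markers, 3 were higher and 1 was lower in normoxia, 40% called against 34.6% of all tested genes. With the replicate number as a block, 5 were higher and 5 were lower, in a fit that called 46.0% of all genes. Although the sort had removed CD45+ cells, 10 of 14 blood cell markers passed the filter on low counts. Their summed level was 515 to 1028 CPM in hypoxia and 619 to 1165 CPM in normoxia. Only Lyz2, a lysozyme of myeloid cells, passed the threshold (log2 change 0.56, adjusted p = 0.022), and it went from 354 to 523 CPM. This was 10% of the tested markers, against 34.6% of all tested genes. Their median log2 change was -0.27, and Csf1r went from 168 to 111 CPM (log2 change -0.59, adjusted p = 0.10). With the block, 1 marker was higher and 5 were lower, in a fit that called 46.0% of all genes. Cd3e and S100a9 were at 0 in every sample, and Ptprc, which encodes CD45, was at 13.0 CPM in hypoxia and 13.8 CPM in normoxia. The part of such cells in the results below was not tested. Of 7 erythroid markers 6 were at 0 throughout, and 8 endothelial markers together reached 1.93 to 3.44 CPM, with Tie1, Emcn and Cldn5 at 0.

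The promoter sequences of the genes are shown first, because they show where the letters of the hypoxia response element lie relative to the start of transcription. RefSeq (GRCm38.p6) gave windows for 6 of the 9 genes. In each, the 250 bases before the start were searched on both strands for ACGTG and GCGTG, the core letters of the element. The E-box CACGTG, which MAX and BHLHE40 proteins can bind, contains ACGTG on both strands and so counts 2 times. At least 1 match was found in 38.6% of 32851 mouse windows of this length, at least 2 in 16.7%, at least 4 in 2.6% and at least 5 in 1.0%. The stretches below are those outside annotated exons, written 5′ to 3′ on the strand of the gene, with the matches in capitals. A match is a description of the letters and not a bound site.

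Bnip3 (chr7:138909520-138909756, minus strand): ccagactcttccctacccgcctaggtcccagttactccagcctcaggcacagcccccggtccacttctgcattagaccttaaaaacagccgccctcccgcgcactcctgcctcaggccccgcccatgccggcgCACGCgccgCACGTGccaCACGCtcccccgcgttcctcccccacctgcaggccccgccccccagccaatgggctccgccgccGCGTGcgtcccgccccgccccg

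Ankrd37 (chr8:45999868-46000100, minus strand): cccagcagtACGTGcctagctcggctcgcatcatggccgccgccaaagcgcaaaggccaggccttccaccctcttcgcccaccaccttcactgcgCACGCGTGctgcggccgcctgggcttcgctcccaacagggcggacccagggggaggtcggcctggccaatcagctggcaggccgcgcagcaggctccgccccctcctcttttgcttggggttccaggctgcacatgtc

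Ddit4 (chr10:59951835-59952020, minus strand): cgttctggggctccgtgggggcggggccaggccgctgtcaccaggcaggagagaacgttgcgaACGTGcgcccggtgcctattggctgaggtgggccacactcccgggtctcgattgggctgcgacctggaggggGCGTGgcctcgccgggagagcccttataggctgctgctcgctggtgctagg

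Adm (chr7:110627407-110627656, plus strand): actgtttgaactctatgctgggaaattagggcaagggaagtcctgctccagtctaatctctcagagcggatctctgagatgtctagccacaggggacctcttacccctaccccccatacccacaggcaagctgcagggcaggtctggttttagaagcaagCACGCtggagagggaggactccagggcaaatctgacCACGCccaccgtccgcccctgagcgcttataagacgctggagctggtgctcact

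Bnip3 had 5 matches within its 250 bases, of which a pair was the E-box CACGTG, and they spanned positions -117 to -31 relative to the start. Ankrd37 had 4 matches, and the one nearest to the start lies in an annotated exon and is not shown above. Ddit4 and Adm had 2 matches each. The 3 alternative starts of Mxi1, a gene with several first exons, had 0, 1 and 1 matches. Fundc1 had 0 in its window, which partly lies within its annotated first exon. The GC content of the windows was 72.4% for Bnip3, 67.6% for Ankrd37, 61.2% for Fundc1 and 56.8% for Adm, against a median of 52.4% over all windows, and the number of matches was not compared at equal GC content.

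To ask which of the 9 genes responded to oxygen, their counts were compared between the groups in a fit over all genes (limma-trend). All 9 passed the filter on low counts. Ndrg1, Ankrd37, Mxi1, Bnip3 and Ddit4 were lower in normoxia at an adjusted p under 0.05, with log2 changes between -0.80 and -0.21, and 0 were higher. Bnip3l, Fundc1, Adm and Bhlhe40 did not pass this threshold. For comparison, 16.5% of the 14369 tested genes were lower and 18.0% were higher in normoxia (34.6% in either direction), and the median change of all genes was 0.0049 on the log2 scale. Hypoxia and normoxia values were separate for Ndrg1, Ankrd37 and Ddit4, that is for 3 of the 9 genes, against 32.6% of all tested genes. The count of 5 lower genes among 9 thus lay above the background of 16.5%, whereas the count of 3 without overlap was close to its own background. Because the genes were chosen with these data known, no test was made over the set. Both the number of cells of a type and the RNA per cell can set such levels in bulk samples, and these cannot be told apart.

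**Figure D1:**
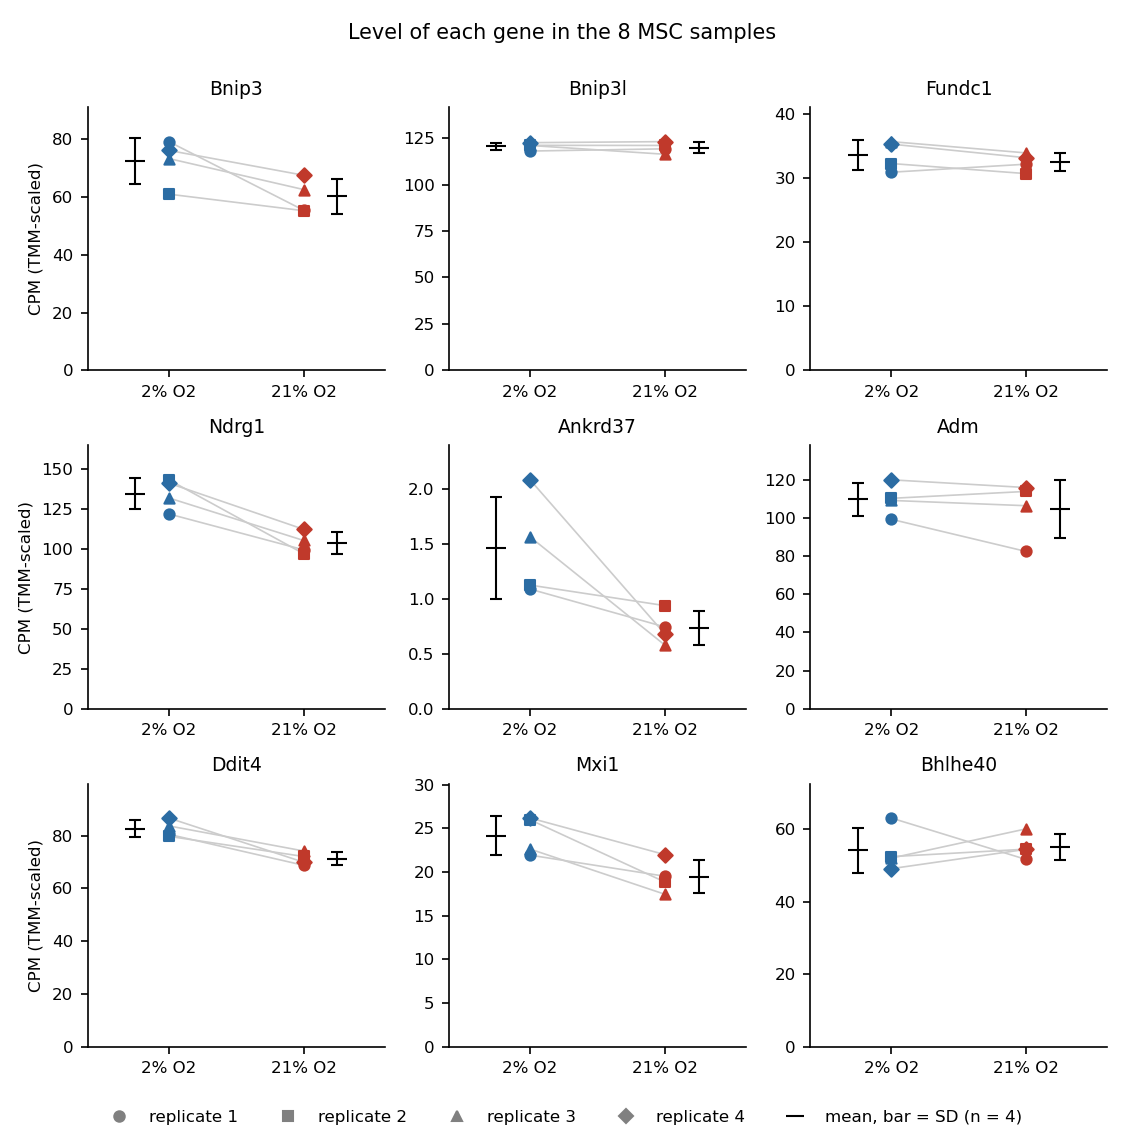
TMM-scaled level in CPM (vertical axis, starting at 0) of the 9 genes in the 4 hypoxia (2% O2, blue) and 4 normoxia (21% O2, red) samples, with grey lines joining samples of the same number and black bars giving the mean and SD. The groups are separate for Ndrg1, Ankrd37 and Ddit4, overlap slightly for Bnip3 and Mxi1, and lie on top of each other for Bnip3l, between 116 and 123 CPM.

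Of the 3 mitophagy receptor genes in the set, only Bnip3 passed the threshold in the fit without correction for GC content and length. All 3 passed with it. Bnip3 (chr7:138890836-138909519) had 79.3, 61.1, 73.4 and 76.2 CPM in hypoxia replicates 1 to 4 and 55.5, 55.3, 62.6 and 67.6 CPM in normoxia. Hypoxia replicate 2 lay within the range of the normoxia samples, and each normoxia sample was below the hypoxia sample of the same number. The log2 change was -0.26 (SE 0.092, 95% interval -0.46 to -0.064, adjusted p = 0.042), a fall by 16.7%, and 22.3% of all genes had a more negative change. This call was close to the threshold. It was lost without hypoxia replicate 1, 3 or 4 or normoxia replicate 1, 2 or 3 (limma adjusted p between 0.058 and 0.107), without TMM scaling (adjusted p = 0.16) and without a filter on low counts (adjusted p = 0.062). It held with the replicate number as a block (limma adjusted p = 0.0016).

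Bnip3l (chr14:66985239-67008877), the receptor that clears mitochondria from maturing red blood cells, had 118, 121, 121 and 123 CPM in hypoxia and 119, 121, 116 and 123 CPM in normoxia. Without GC correction the log2 change was -0.0093 with a 95% interval of -0.12 to 0.098, and with the correction described below it was -0.21 (adjusted p = 0.0064). A processed copy of the gene, Bnip3l-ps, held 80 to 187 counts per sample, so that some reads may have been assigned between them. Fundc1 (chrX:17556564-17572325) had 31.0, 32.3, 35.8 and 35.4 CPM in hypoxia and 32.2, 30.8, 34.0 and 33.2 CPM in normoxia. The groups overlapped, and the log2 change of -0.044 had an interval of -0.20 to 0.11. With the GC correction it became -0.24 (adjusted p = 0.030).

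Because a ratio of 2 genes within a sample does not depend on the scaling between samples, the receptors were also set against each other. The log2 ratio of Bnip3 to Bnip3l counts was -0.74 ± 0.18 (SD, n = 4) in hypoxia and -0.997 ± 0.14 in normoxia, a difference of -0.26 (two-sided exact permutation test, p = 0.086, adjusted over 3 ratios p = 0.13). The ratio of Bnip3 to Fundc1 counts was 1.10 ± 0.19 in hypoxia and 0.88 ± 0.10 in normoxia, a difference of -0.22 (exact permutation p = 0.057, adjusted p = 0.13). Both ratios were lower in normoxia in 4 of 4 same-numbered pairs, but neither difference passed the threshold. The ratio of Bnip3l to Fundc1 counts was 1.85 ± 0.084 and 1.88 ± 0.083 (exact permutation p = 0.63). With 4 samples against 4 the smallest p that this test can give is 0.029.

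**Figure D2:**
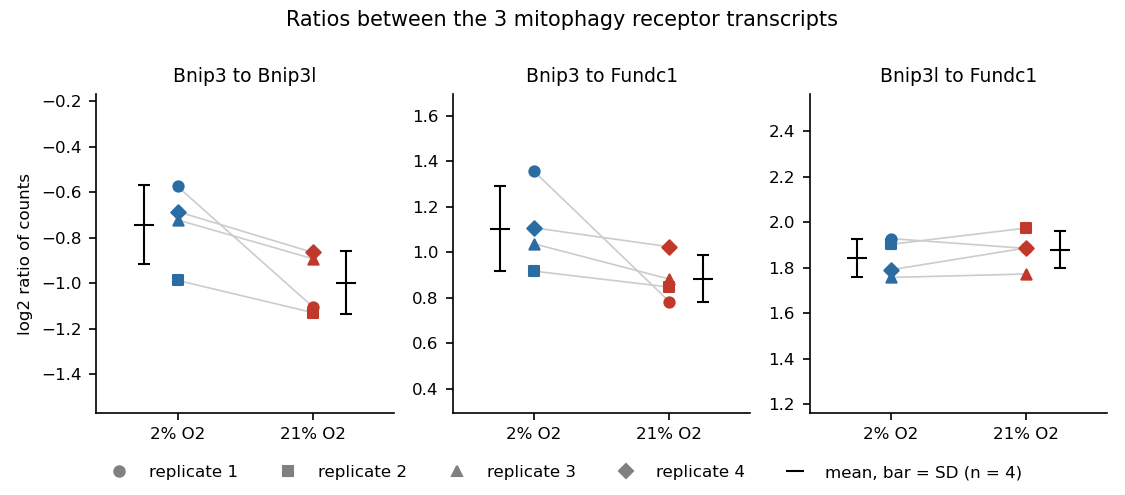
Log2 ratio of the counts of each pair of mitophagy receptor genes within a sample (vertical axis, same span in each panel, not starting at 0) in hypoxia (2% O2, blue) and normoxia (21% O2, red), with grey lines joining samples of the same number and black bars for mean and SD. Both ratios with Bnip3 fall along all 4 lines, from a mean of -0.74 to -0.997 and from 1.10 to 0.88, and the ratio of Bnip3l to Fundc1 stays near 1.85 and 1.88.

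The genes of the stress proteins NDRG1 and ANKRD37 had the 2 largest changes of the 9 without GC correction. Ndrg1 (chr15:66929318-66969640) encodes a cytoplasmic protein induced by hypoxia and other stresses and linked to growth arrest. It had 122, 143, 132 and 141 CPM in hypoxia and 99.4, 97.0, 105 and 112 CPM in normoxia. Every normoxia sample lay below every hypoxia sample. The log2 change was -0.38 (SE 0.069, 95% interval -0.53 to -0.23, adjusted p = 0.0015), a fall by 23.0%. Ndrg1 passed the threshold in all 21 alternative analyses, with log2 changes between -0.43 and -0.29 and a largest adjusted p of 0.0079, and was the only one of the 9 genes to do so. Its relatives were examined from a list of the NDRG family. Ndrg2 fell by 1.27 on the log2 scale (adjusted p = 7.66e-05), from 10.6 ± 1.05 to 4.27 ± 0.49 CPM (SD, n = 4). Ndrg3 fell by 0.33 (adjusted p = 0.0016), and Ndrg4 had a log2 change of 0.22 that did not pass (adjusted p = 0.056; 0.0019 with the replicate block).

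Ankrd37 (chr8:45996902-46005707) encodes a small protein with ankyrin repeats whose transcript is a long-known HIF target. It had the largest change of the 9 genes and by far the lowest level, with 26, 14, 20 and 27 counts in the hypoxia samples and 10, 13, 8 and 9 counts in the normoxia samples. Scaled to library size these were 1.09, 1.12, 1.56 and 2.08 CPM in hypoxia and 0.74, 0.94, 0.58 and 0.68 CPM in normoxia, where 3 counts correspond to 0.119 to 0.233 CPM. The groups did not overlap. The log2 change was -0.80 (SE 0.25, 95% interval -1.35 to -0.26, adjusted p = 0.027), and 2.42% of all genes had a more negative change. With so few counts the size is loosely set. The call was lost without hypoxia replicate 3 or 4 or normoxia replicate 3 or 4 (limma adjusted p between 0.058 and 0.086), with hypoxia replicate 1 thinned to the depth of the others (adjusted p = 0.070), with limma-voom (adjusted p = 0.051) and without a filter on low counts (adjusted p = 0.077). It held with the replicate block (limma adjusted p = 0.015). Ufsp2, which overlaps Ankrd37 on the opposite strand, held 370 to 895 counts per sample and was higher in normoxia (log2 change 0.26, adjusted p = 0.026). Whether the counting used strand is not stated, so that reads of both genes may have been mixed.

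DDIT4, also called REDD1, restrains the growth kinase complex mTORC1 through the TSC1 and TSC2 proteins. Ddit4 (chr10:59949669-59951834) had 80.5, 79.7, 83.7 and 86.7 CPM in hypoxia and 68.8, 72.1, 74.2 and 69.9 CPM in normoxia. The groups did not overlap, and each normoxia sample was below the hypoxia sample of the same number. The log2 change was -0.21 (SE 0.056, 95% interval -0.34 to -0.092, adjusted p = 0.011), a fall by 13.8%. This call did not hold once the GC content and length of the transcripts were allowed for (log2 change -0.0051, adjusted p = 0.95), nor without TMM scaling (adjusted p = 0.12). It held with the replicate block alone (limma adjusted p = 0.0032).

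Of 19 genes around mTORC1, 5 rose and 6 fell in normoxia, 57.9% in all against 34.6% of all tested genes, and the median change was -0.11. Eif4ebp1, a repressor of translation that mTORC1 inactivates, fell by 0.42 on the log2 scale, and Tsc2 fell by 0.34. Prkaa2, a catalytic subunit of the energy sensor AMPK, rose by 0.52 from 3.08 CPM, and Rps6kb1, the S6 kinase that mTORC1 activates, rose by 0.45. Tsc1, named after its values were seen as the partner of TSC2, had a log2 change of 0.43 (adjusted p = 0.0071), opposite in direction to that of Tsc2.

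MXI1 and BHLHE40 are transcriptional repressors with a basic helix-loop-helix. MXI1 competes with MYC for their common partner MAX. Mxi1 (chr19:53310518-53375810) had 21.9, 26.0, 22.6 and 26.2 CPM in hypoxia and 19.5, 18.9, 17.5 and 22.0 CPM in normoxia. Normoxia replicate 4 lay just above hypoxia replicate 1, the only overlap, and all 4 same-numbered pairs went down. Its log2 change was -0.31 (SE 0.095, 95% interval -0.52 to -0.10, adjusted p = 0.025), a fall by 19.4%. The call was lost without hypoxia replicate 2 or 4 or normoxia replicate 2 or 3 (limma adjusted p between 0.055 and 0.073) and without TMM scaling (adjusted p = 0.094). It held with the replicate block (limma adjusted p = 0.0030). The deposited values are sums over a whole gene, so the alternative starts of Mxi1 could not be followed.

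Bhlhe40 (chr6:108660629-108666925), a clock and stress repressor that binds E-boxes, had 63.0, 52.4, 52.0 and 49.1 CPM in hypoxia and 51.6, 54.5, 60.0 and 54.4 CPM in normoxia. The highest value of all was that of hypoxia replicate 1, and the groups overlapped widely. Its log2 change was 0.031 (95% interval -0.15 to 0.21). The pair with number 1 fell by 0.29 on the log2 scale, whereas the other pairs rose by between 0.056 and 0.21.

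Among the partners and rivals of MXI1 in the MAX network, 4 of 14 tested genes were higher and 3 were lower (7 of 14 called, against 34.6% of all tested genes), with a median of 0.074. Mga, a large MAX partner, rose by 0.54 and Hdac1, a histone deacetylase recruited by MXI1 complexes, rose by 0.42, while Mlxip fell by 0.49 and Mnt, another MAX-bound repressor, fell by 0.37. Of 13 tested relatives and E-box partners of Bhlhe40, 2 were higher and 4 were lower (46.2% called, against the same 34.6%), with a median of -0.092. Clock, the activator opposed by BHLHE40 in the circadian oscillator, rose by 0.62 (adjusted p = 0.00013), from 35.4 ± 2.71 to 54.5 ± 2.69 CPM. The paralogue Bhlhe41 rose by 0.38 (adjusted p = 0.015). Tcf3 fell by 0.41 and Usf2 fell by 0.34.

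ADM is a secreted peptide that dilates blood vessels and acts on the receptor CALCRL, which needs a RAMP protein as a partner. Adm (chr7:110627661-110629820) had 99.4, 110, 109 and 120 CPM in hypoxia and 82.5, 114, 107 and 116 CPM in normoxia. Normoxia replicate 1 was the lowest of the 8 values, the other 7 lay between 99.4 and 120 CPM, and the log2 change of -0.077 had a 95% interval of -0.30 to 0.14 (adjusted p = 0.60). Of 7 other tested genes of the system, 1 was higher and 4 were lower (5 of 7 called, against 34.6% of all genes), with a median of -0.54.

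Ramp2, a partner that makes CALCRL an adrenomedullin receptor, had 2.88, 10.1, 7.73 and 11.8 CPM in hypoxia and 0.52, 1.44, 1.01 and 2.19 CPM in normoxia. Each normoxia value lay below each hypoxia value, and hypoxia replicate 1 stood closest to normoxia. Ramp2 thus fell by 2.44 on the log2 scale (SE 0.42, adjusted p = 0.0011). Ramp1, the partner that makes CALCRL a receptor for the related peptide CGRP, had 5.22, 8.10, 9.06 and 9.79 CPM in hypoxia and 1.26, 1.94, 1.01 and 2.03 CPM in normoxia, with a log2 change of -2.23 (SE 0.24, adjusted p = 0.00010). Both were weakly expressed, with at least 7 counts for Ramp2 and 14 counts for Ramp1 in any sample. Ackr3, an atypical receptor that takes up chemokines and adrenomedullin, went the other way, with 45.3, 36.5, 35.8 and 31.2 CPM in hypoxia and 85.1, 73.3, 67.1 and 54.2 CPM in normoxia (log2 change 0.90, adjusted p = 0.00046). Calcrl itself fell by 0.54 (adjusted p = 0.028) and Adm2, a second ligand, fell by 0.54 (adjusted p = 0.0091).

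**Figure D3:**
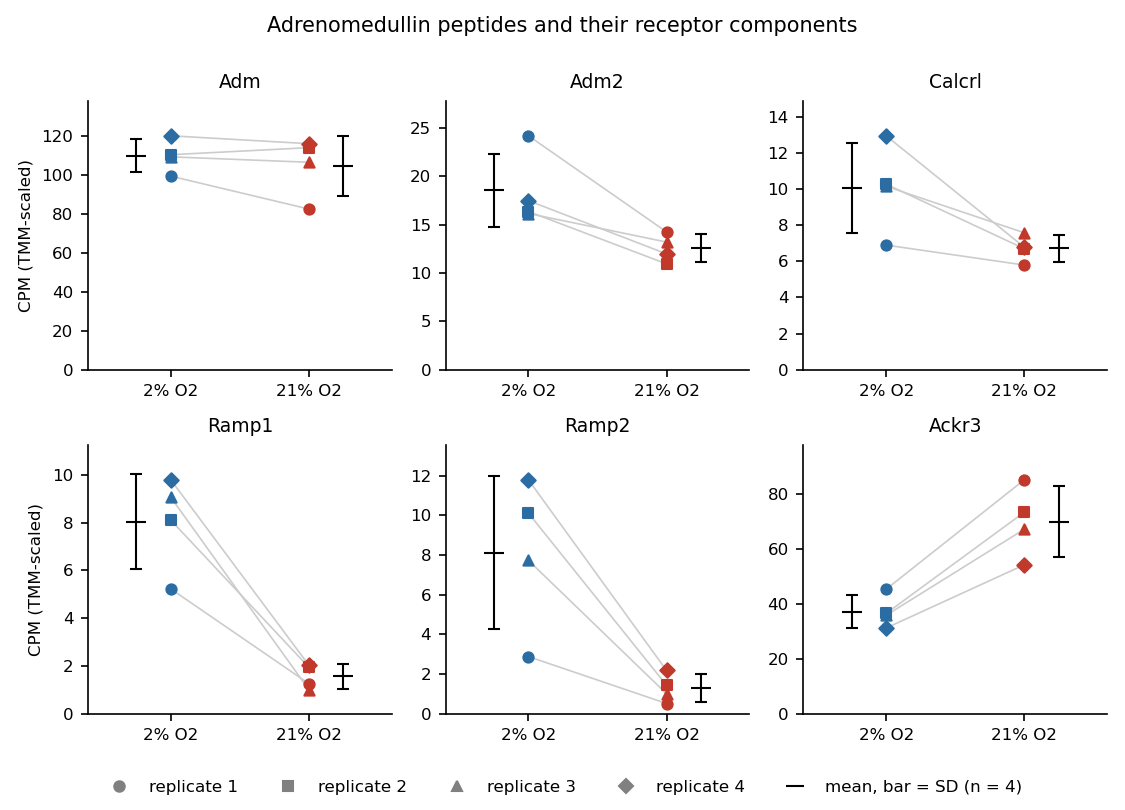
TMM-scaled level in CPM (vertical axis, starting at 0) of Adm, Adm2, Calcrl, Ramp1, Ramp2 and Ackr3 in hypoxia (2% O2, blue) and normoxia (21% O2, red), with grey lines joining samples of the same number and black bars for mean and SD. Adm overlaps between the groups, Ramp1 and Ramp2 fall along every line to at most 2.19 CPM, and Ackr3 rises along every line to 54.2 CPM or more.

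Levels of different genes were compared only per length of exon, as log2 RPKM, which divides the CPM by the exon length in kilobases. In hypoxia the order was Adm (6.08), Ddit4 (5.56), Bnip3 (4.99), Bnip3l (4.97), Ndrg1 (4.35), Fundc1 (3.84), Bhlhe40 (3.52), Mxi1 (1.82) and Ankrd37 (-0.089). The order of Bnip3 and Bnip3l held in 3 of 4 hypoxia samples and in 0 of 4 normoxia samples, in which Bnip3l was the higher of the pair. Fundc1 was above Bhlhe40 in 3 of 4 hypoxia samples and in 4 of 4 normoxia samples. All other neighbours kept their order in all 8 samples. The length used covers all annotated exons of a gene, which lowers the value of genes with many alternative exons such as Mxi1.

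The GC content of transcripts moved with the difference between the groups. When all genes were split into 5 equal bins by GC content, the median log2 change went from 0.20 in the bin with the lowest GC content to -0.19 in the bin with the highest. After a correction for GC content and length within each sample, Bnip3 (transcript GC content 41.6%) had a log2 change of -0.42 (adjusted p = 0.0040), Mxi1 (46.3%) of -0.43 (adjusted p = 0.0051), Ndrg1 (50.4%) of -0.39 (adjusted p = 0.0013) and Ankrd37 (51.1%) of -0.69 (adjusted p = 0.048). Bnip3l (41.9%) and Fundc1 (38.8%), the genes of lowest GC content beside Bnip3, were then called lower, with the values given above. Ddit4, the gene with the highest GC content of the 9 (57.9%), had a log2 change of -0.0051, as given above. Adm and Bhlhe40 stayed near 0. With the correction 6 of the 9 genes were lower, the 3 receptors among them, against 14.4% of all genes in that fit. Of the called genes named from the lists, Fkbp8, Prkaa2, Usf2, Egln2, Sesn2 and Bbc3 were not called in the corrected fit that also had the replicate block (limma adjusted p between 0.067 and 0.99). A real response that is related to GC content or length would be taken out by the correction too, and which of both values is nearer to the change in the cells was not tested.

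**Figure D4:**
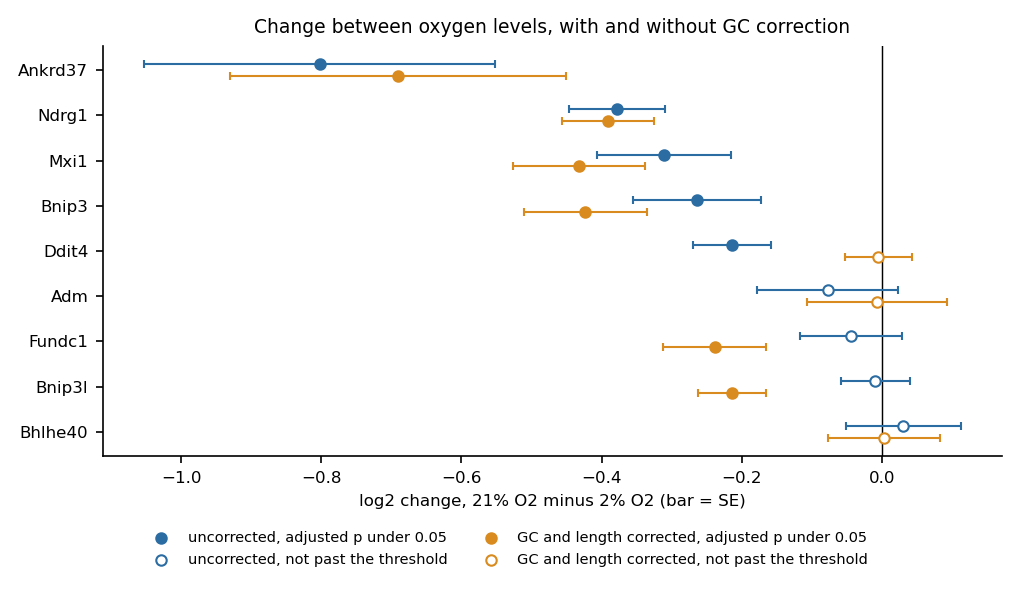
Log2 change (normoxia minus hypoxia, horizontal axis, bar = SE) of the 9 genes without (blue) and with (orange) correction for transcript GC content and length, where filled points have an adjusted p under 0.05. Ankrd37, Ndrg1, Mxi1 and Bnip3 are filled in both, Ddit4 moves from -0.21 to -0.0051, and Bnip3l and Fundc1 move from near 0 to -0.21 and -0.24.

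Other genes of mitophagy were followed in a list of 30, of which 29 were tested. The list held 6 genes higher and 5 genes lower in normoxia and had a median change of 0.074. The share called in either direction, 37.9%, was close to the 34.6% of all tested genes. The number called was sensitive to pairing. With the replicate block, 8 were higher and 9 were lower, in a fit that called 46.0% of all genes. Without TMM scaling, 12 were higher and 4 were lower, where 3611 of all 14369 tested genes were higher and 1575 were lower. Map1lc3a and Gabarap, 2 of the LC3 and GABARAP proteins that the receptors bind, fell by 0.69 (adjusted p = 6.48e-05) and by 0.43 (adjusted p = 0.00027). Map1lc3a went from 124 ± 9.72 to 76.4 ± 4.40 CPM and Gabarap from 454 ± 27.9 to 336 ± 10.3 CPM (SD, n = 4). The 3 other genes that fell were Ulk1, Phb2 and Fkbp8. Tax1bp1, an adaptor that links ubiquitin-tagged cargo to LC3, rose by 0.85 (adjusted p = 2.61e-05), from 80.9 ± 6.89 to 145 ± 1.57 CPM. Tbk1, the kinase that activates such adaptors, rose by 0.57 (adjusted p = 0.00039). The adaptors belong to the branch of mitophagy that starts with the kinase PINK1 rather than with a receptor. Pink1, named after its values were seen, had a log2 change of -0.25 (adjusted p = 0.096; 0.00066 with the replicate block). On values corrected for GC content and length, the fit with this block gave Pink1 a log2 change of only -0.046 (limma adjusted p = 0.47).

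Among 37 other HIF target genes, 16 had lower and 5 had higher levels in normoxia, against 16.5% lower and 18.0% higher of all genes, and the median change was -0.21 against 0.0049 over all genes. The changes of the 5 genes called above, from -0.80 to -0.21, lay within the range of this wider list. Car9, a carbonic anhydrase of the cell surface, fell by 2.34 (adjusted p = 9.81e-06), from 37.1 ± 6.05 to 7.20 ± 1.52 CPM, and Egln3, a HIF prolyl hydroxylase, fell by 0.91. In the other direction Plod2, a collagen lysyl hydroxylase, rose by 0.61. Of 9 tested genes of oxygen sensing, 1 was higher and 3 were lower (44.4% called, against 34.6%). Hif1a transcript rose by 0.48 (adjusted p = 0.00050), Egln3 and Egln1 fell by 0.91 and 0.47, and the third gene lower was Egln2. Egln3 and Egln1 are also in the list of other HIF targets, so the counts of both lists share them. HIF activity is set mainly at the level of the protein, which was not measured in these samples.

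**Figure D5:**
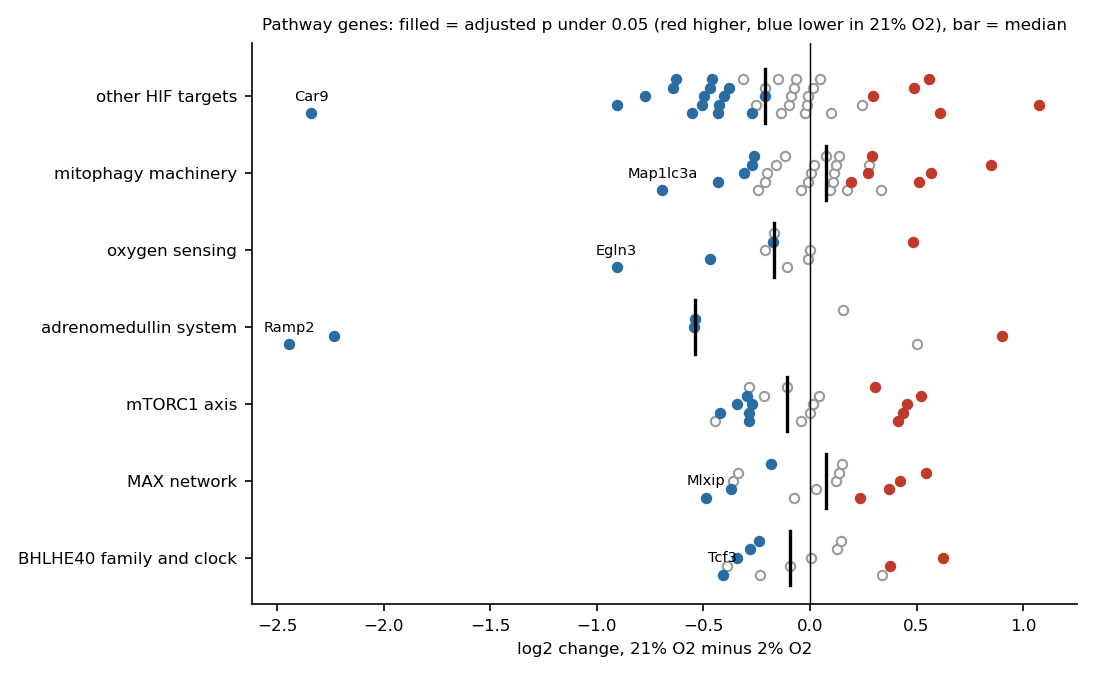
Log2 change (normoxia minus hypoxia, horizontal axis) of each tested gene in 7 lists around the 9 genes, where filled points have an adjusted p under 0.05 (red higher, blue lower in normoxia) and the black bar is the median of the list. The median lies left of 0 for the other HIF targets (-0.21) and the adrenomedullin system (-0.54) and right of 0 for the mitophagy machinery (0.074).

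Several of the 9 genes also answer to other signals, and the lists for these signals were read in the same way, against the 18.0% of all tested genes that were higher and the 16.5% that were lower. The share called in either direction was 43.8% in the stress response list, 53.8% in the glucocorticoid list and 71.4% in the p53 list, against 34.6% of all tested genes. The lists are short, and no test was made of these shares. Of 16 genes of the integrated stress response, which induces Ddit4, 1 was higher and 6 were lower, with a median of -0.17. The amino acid transporter Slc7a5 fell by 1.01 and Trib3 fell by 0.68, whereas Ppp1r15a rose by 0.43. Of 13 tested genes of the glucocorticoid response, 6 were higher and 1 was lower, with a median of 0.053. Sgk1 rose by 0.84 and Errfi1 by 0.70, whereas Tsc22d3 (also called Gilz), a typical glucocorticoid target, fell by 0.59. Of 14 targets of p53, 7 were higher and 3 were lower, with a median of 0.12. Pmaip1 and Mdm2 rose by 1.42 and 0.94, and Bbc3 and Zmat3 fell by 0.36 and 0.29. Sesn2 belongs to the stress, p53 and mTORC1 lists and Sesn1 to the p53 and mTORC1 lists, so these lists share genes.

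The genes with the most similar course over the 8 samples were found among 9395 genes by the root mean square difference of log2 values centred on their mean. Within the set, the closest were Bnip3l and Fundc1 (0.074) and Ndrg1 and Mxi1 (0.085). Outside it, Bnip3 was closest to Slc16a7 (0.060), Arl15 and Gm17669, and Ndrg1 to Apbb2 (0.030), Pccb and Zfand2b. Ddit4 was closest to Bad (0.027), Manbal and Def8, Mxi1 to Pcgf2 (0.052), Abi2 and Fadd, and Ankrd37 to 2410006H16Rik (0.17), Tmem98 and Plac9a. Among the genes that did not pass the threshold, Bnip3l was closest to Asb7 (0.026), Atrnl1 and Pex19, and Fundc1 to Agpat3 (0.027) and Cd9. Adm was closest to Ndst2 (0.045), Speg and Zfp513, and Bhlhe40 to Zfp64 (0.038), Srf and Ddx28. The distance of Ankrd37 to its nearest gene was the largest of the 9. Candidates needed a mean log2 CPM of at least 3, whereas Ankrd37 had 0.70 in hypoxia and -0.10 in normoxia. No gene of its own level could thus be found, and its distance is not comparable with those of the other genes.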

How the data were processed

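RNA-seq libraries of 8 MSC samples were sequenced as single-end reads. Reads were aligned by the authors to mm10 with STAR within zUMIs, and featureCounts with Ensembl genes gave the deposited raw counts, which are whole numbers per gene and not normalized. Whether counting used strand, introns or multiply mapped reads is not stated. Symbols, positions, exon lengths and transcript GC content came from GENCODE M21 on the same assembly, and 53360 of 53465 identifiers had a symbol.

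Following the study's methods, genes were kept by filterByExpr (edgeR 4.0.16, minimum count 5), which left 14369 genes. Log2 CPM with TMM factors and a prior count of 3 were compared with limma-trend (limma 3.58.1, R 4.3.3), with Benjamini-Hochberg adjustment over all tested genes and a threshold of 0.05. On this scale the change of genes with few counts is understated. For the GC and length correction, natural splines of both properties (5 degrees of freedom) were fitted in every sample and subtracted. Receptor ratios (0.5 added to the counts) were compared by two-sided exact permutation tests. Alternatives were the edgeR quasi-likelihood test, DESeq2 1.42.0, limma-voom, other scaling, filter and prior count, thinning of hypoxia replicate 1, and leaving out each sample.

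Both groups carry the sample numbers 1 to 4, and sorted cells were divided between the oxygen levels. Deviations of same-numbered samples from their group means correlated across genes at 0.47, 0.28, 0.25 and 0.17. Each was above the mean for other numbers (-0.19, -0.084, -0.071 and -0.044). These means are not independent of the same-numbered values, because the deviations were taken from group means. The numbers were taken as pairs in an alternative fit with a replicate block. No pair of replicates agreed within sampling noise (chi-square per degree of freedom of at least 3.66). Total counts were 12898291 to 25132141 per sample, and floors of 3 counts cover counting error only.

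The test was run on simulated data of 14207 genes, 200 of them changed by 1 log2 unit. Of these limma-trend found 86.5%, and 5.98% of its calls were false. The changes of the 9 genes were smaller than those simulated, and the simulated samples had no pairs. The shares thus do not carry over to changes of that size. The genes, the gene lists and the tests were chosen with earlier results of these data known. Named are the 9 genes, from each list the 2 largest called changes in each direction, and for each of the 9 the 3 most similar genes with a mean log2 CPM of at least 3. A few genes that this rule picks are not reported here. Any other gene was named after its values were seen.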

Additional observations from a re-analysis of the deposited data

Results flagged for a closer look

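The total count of hypoxia replicate 1 (25132141) stood apart from the other 3 hypoxia samples, with a gap of 0.976 of the range of the group, above Dixon's 95% critical value for 4 samples. This was the only one of 26 sets of 4 values searched (total counts, the 9 genes and the 3 receptor ratios in each group) to pass its critical value, where chance alone gives about 1.3. Thinned to the depth of the other samples, 4 of the 9 genes were lower in normoxia and Ankrd37 lost its call (adjusted p = 0.070 in limma).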

How the results depend on the processing

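The number of the 9 genes lower in normoxia was 5 and fell to 2 without TMM scaling and to 3 without a filter on low counts, where more genes were tested. It ranged from 2 to 4 when a sample was left out. In each of these Ndrg1 was called. Without TMM scaling 3611 genes were higher and 1575 were lower, against 2592 and 2378 with it. The number of mitophagy genes called was 11 and became 17 with the replicate block, which changed no call among the 9 genes. The cause of these differences was not tested. The count of other HIF targets called stayed between 19 and 28 of 37. Of all tested genes, 34.6% were called in the main fit and 46.0% with the replicate block. No value of the 9 genes past the threshold changed sign. The difference in the ratio of Bnip3 to Bnip3l was -0.26 with the replicate block too (paired sign-flip permutation test, adjusted p = 0.19, smallest possible raw p 0.125). Depth limits Ankrd37, at 8 to 27 counts, most.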
